A study of Rattus norvegicus with 40 samples.

Results

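The choroid plexus is the epithelial tissue inside the brain's ventricles that secretes cerebrospinal fluid, and 9 genes known for their expression in it were followed here: *Ttr*, *Kl*, *Kcne2*, *Sostdc1*, *Cldn2*, *Slc4a5*, *Folr1*, *Aqp1* and *Enpp2*. They were picked by gene name, with earlier results of these data known, and are 9 of the 25958 gene identifiers in the deposited tables. All 9 were present in the tables of all 4 brain regions. Total RNA had been sequenced from hippocampus, amygdala, anterior cortex and cerebellum of rats 12 months after a blast exposure or a sham procedure, with 5 blast-exposed and 5 sham libraries in each region, 40 in all. The labels give no strain, sex or age of the rats and no detail of the blast, and they do not say that the libraries come from separate animals, so p-values measure only the spread between these samples. Each library is called here by the number in its title (or by the title itself, as for Hip_666). One sham amygdala library, whose column carries another number than its title, is called the unnumbered library. The comparison of blast with sham asks what a blast leaves in each region after 12 months, and for these 9 genes it first requires knowing which libraries carry choroid plexus RNA at all.

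The choroid plexus hangs as fronds in the lateral ventricles, the third ventricle and the fourth ventricle. Its epithelial cells move sodium, chloride, bicarbonate and water from blood to ventricle, are sealed to each other by tight junctions, and secrete carrier proteins and hormones into the fluid. The lateral ventricles border the hippocampus, and the fourth ventricle lies below the cerebellum. In these bulk libraries, fewer choroid plexus cells and less RNA per cell cannot be told apart.

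Library totals ran from 11268097 to 37128383 counts. Markers were checked against the labelled regions. *Gabra6*, a GABA-A receptor subunit of cerebellar granule cells, stood at 389 to 430 FPKM in the cerebellum and at most 0.399 FPKM elsewhere. *Neurod6*, a transcription factor of excitatory forebrain neurons, stood at 71.2 to 99.9 FPKM in the hippocampus, 10.3 to 23.1 in the amygdala, 9.13 to 17.1 in the anterior cortex and 14.6 to 18.9 in the cerebellum, so it sets apart the hippocampus alone. *Fibcd1*, a marker of hippocampal CA1 neurons, overlapped between hippocampus (0.0386 to 3.72 FPKM) and amygdala (0 to 2.14 FPKM). FPKM is the authors' count per length and depth, and it is the scale used here wherever levels of different genes are set side by side. Gene positions below are those of the deposited tables, whose build the sources used here do not name. Anterior cortex libraries 8 of blast and 11, 13 and 15 of sham had counts in 16577 to 17845 genes, fewer than the 18744 to 20748 of the other 6 libraries of that region, and the anterior cortex fold changes are given with and without them.

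Of the 9 genes, 4 had an entry in RefSeq's promoter table for the rat assembly GRCr8. The 250 bases before the start of transcription are printed for 3 of them, because their base composition differs widely although the genes moved together across libraries. Capitals mark CG pairs.
Ttr, chr18:12218508-12218757, plus strand: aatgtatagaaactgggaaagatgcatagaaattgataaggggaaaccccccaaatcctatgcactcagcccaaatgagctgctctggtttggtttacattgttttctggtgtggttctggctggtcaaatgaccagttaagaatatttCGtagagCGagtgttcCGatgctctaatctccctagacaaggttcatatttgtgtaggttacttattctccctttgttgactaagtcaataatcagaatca
Kl, chr12:5325753-5326002, plus strand: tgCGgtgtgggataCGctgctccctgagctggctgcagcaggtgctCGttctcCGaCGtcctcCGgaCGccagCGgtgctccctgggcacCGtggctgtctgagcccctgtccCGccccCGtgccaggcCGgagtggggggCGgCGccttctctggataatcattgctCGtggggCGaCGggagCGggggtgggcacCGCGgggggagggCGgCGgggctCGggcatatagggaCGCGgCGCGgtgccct
Aqp1, chr4:85812534-85812783, plus strand: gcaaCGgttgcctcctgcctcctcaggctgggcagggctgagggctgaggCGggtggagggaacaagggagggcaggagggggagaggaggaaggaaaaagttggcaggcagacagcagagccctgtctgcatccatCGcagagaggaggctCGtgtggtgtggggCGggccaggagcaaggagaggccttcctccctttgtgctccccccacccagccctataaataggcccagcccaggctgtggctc
The *Ttr* stretch is 40.4% G and C with 3 CG pairs, the *Kl* stretch 73.2% with 27 CG pairs and the *Aqp1* stretch 65.2% with 5 CG pairs. Over all 33469 promoter stretches of the same length in that table, the medians are 51.2% and 5 CG pairs. The letters TATAAA, searched on both strands, are in the *Aqp1* stretch and in 12.9% of all stretches. The letters TAATCC, the core bound by homeodomain factors of the OTX family, are in none of the 4 members' stretches and in 6.34% of all. *Otx2* itself, the OTX factor of the choroid plexus, had too few counts to be tested in any of the 4 regions.

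*Ttr* (ENSRNOG00000016275, chromosome 18, 15532963 to 15540177) encodes transthyretin, the carrier of thyroid hormone and retinol-binding protein that is the most abundant secreted product of the choroid plexus. In the hippocampus it had 522, 86732, 908, 2469 and 87768 counts in blast libraries 4, 8, 22, 88 and Hip_666, and 47572, 141, 324, 2455 and 794 counts in sham libraries 11, 13, 14, 15 and 33. Blast libraries 8 and Hip_666 and sham library 11 stood far above the rest, and the groups overlapped. Scaled to library size, the highest hippocampus library held 765-fold as much *Ttr* as the lowest.

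In the cerebellum *Ttr* had 207, 26506, 27374, 1248 and 283 counts in blast libraries 4, 8, 22, 88 and Cer666, and 128, 428, 95, 802 and 11620 counts in sham libraries 11, 13, 14, 15 and 33. As in the hippocampus, 2 blast libraries and 1 sham library stood high, but only blast library 8 has a number that is high in both regions. The highest and lowest cerebellum libraries differed 326-fold.

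In the amygdala *Ttr* had 4090, 418, 5314, 287 and 330 counts in blast libraries 4, 8, 22, 88 and Amy_666, and 4377, 4655, 49, 2834 and 4008 counts in sham library 11, the unnumbered library and sham libraries 14, 15 and 33. There the low libraries stood apart, 3 of blast and 1 of sham. In the anterior cortex *Ttr* had 53, 1, 33, 12 and 1 counts in the blast libraries and 10, 0, 16, 0 and 196 counts in the sham libraries, in the same order of numbers. Next to none was present in that region.

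Together the 9 genes took 0.0116% to 1.05% of a hippocampus library's counts, 0.0134% to 0.352% in the cerebellum, 0.00844% to 0.0659% in the amygdala and 0.0109% to 0.0152% in the anterior cortex. The blast and sham libraries overlapped for each gene in each region, so 0 of the 9 had groups that did not overlap. Over all genes tested, the share with groups that did not overlap was 0.272% in the hippocampus, 1.52% in the amygdala, 0.644% in the anterior cortex and 0.731% in the cerebellum.

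**Figure D1:**
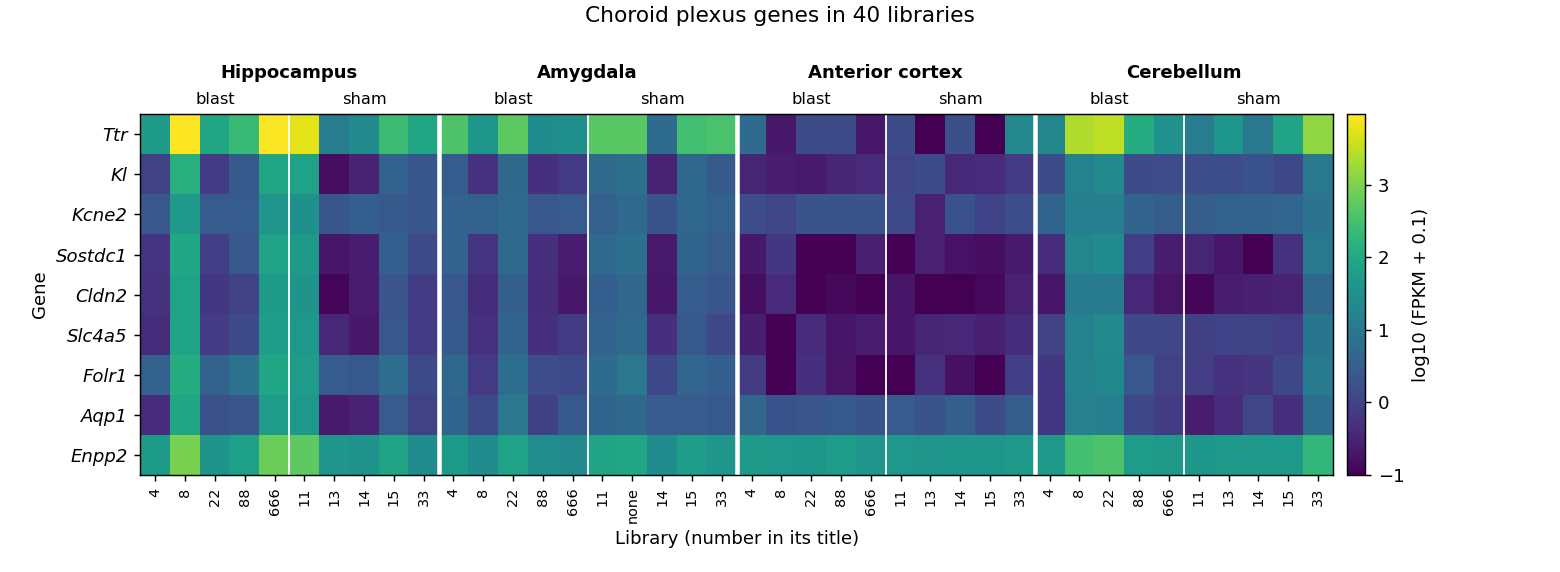
Level of the 9 genes (rows) in the 40 libraries (columns, blast left of sham in each region), as log10 of FPKM plus 0.1, with lighter colours for higher levels. Hippocampus libraries 8, Hip_666 and 11 and cerebellum libraries 8, 22 and 33 are high in all 9 genes, and in the anterior cortex Enpp2 is high in all 10 libraries, with Kcne2 at 0.187 to 1.78 FPKM.

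Among the genes for ion and water transport, *Aqp1* (ENSRNOG00000011648, chromosome 4, 85551502 to 85569360) encodes the water channel of the ventricle-facing membrane. It stood at 0.337 to 83.9 FPKM in blast hippocampus (median 1.97) and at 0.131 to 45.2 FPKM in sham hippocampus (median 0.807). In the cerebellum it stood at 0.533 to 14.6 FPKM in blast libraries (median 1.10) and at 0.148 to 6.05 FPKM in sham libraries (median 0.384). The same libraries were high as for *Ttr*.

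*Slc4a5* (ENSRNOG00000010378, chromosome 4, 114918488 to 115002300) encodes an electrogenic sodium bicarbonate cotransporter. It had 18, 3379, 33, 69 and 3086 counts in hippocampus blast libraries 4, 8, 22, 88 and Hip_666, and 1826, 15, 8, 100 and 28 counts in sham libraries 11, 13, 14, 15 and 33. Libraries 8, Hip_666 and 11 again stood far above the others. *Kcne2* (ENSRNOG00000029811, chromosome 11, 32440237 to 32447259) encodes a regulatory subunit of potassium channels. It reached 48.5, 38.5 and 31.8 FPKM in hippocampus libraries 8, Hip_666 and 11 and lay between 2.05 and 2.89 FPKM in the other 7. Among the hippocampus libraries low in *Ttr*, *Kcne2* thus kept a narrow range of levels.

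*Cldn2* (ENSRNOG00000054495, chromosome X, 111122552 to 111137769) encodes claudin-2, the tight junction protein that forms a cation and water pore between the epithelial cells. It had 17, 2767, 24, 37 and 2094 counts in hippocampus blast libraries 4, 8, 22, 88 and Hip_666, and 1224, 1, 8, 74 and 24 counts in sham libraries 11, 13, 14, 15 and 33. In the cerebellum the counts were 466 and 378 in blast libraries 8 and 22 and 148 in sham library 33, with 1 to 12 counts in the other 7. *Cldn2* failed the filter on low counts in the cerebellum.

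*Folr1* (ENSRNOG00000019902, chromosome 1, 166934460 to 166943592) encodes folate receptor alpha, which carries folate across the epithelium. It stood at 3.40 to 117 FPKM in blast hippocampus (median 7.13) and at 1.22 to 56.2 FPKM in sham hippocampus (median 2.64). In the amygdala it stood at 0.592 to 6.06 FPKM in blast libraries (median 1.39) and at 1.10 to 9.33 FPKM in sham libraries (median 4.07). The amygdala libraries low in *Ttr* were also the 4 lowest in *Folr1*.

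The remaining genes encode secreted or shed signalling proteins. *Kl* (ENSRNOG00000001092, chromosome 12, 943006 to 987551) encodes Klotho, a co-receptor for FGF23 whose shed form circulates as a hormone. It had 45, 6859, 39, 147 and 4869 counts in hippocampus blast libraries 4, 8, 22, 88 and Hip_666, and 3433, 3, 15, 183 and 102 counts in sham libraries 11, 13, 14, 15 and 33. In the cerebellum it had 898 and 1033 counts in blast libraries 8 and 22 and 431 in sham library 33, against 58 to 89 counts in the other 7. The cerebellum libraries low in *Ttr* thus kept a narrow range of *Kl*, while the hippocampus libraries low in *Ttr* spread from 3 to 183 counts.

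*Sostdc1* (ENSRNOG00000005770, chromosome 6, 55812747 to 55817066) encodes a secreted antagonist of BMP and Wnt signalling. It ranged from 0.470 to 91.8 FPKM in blast hippocampus and from 0.103 to 50.8 FPKM in sham hippocampus, and 1 cerebellum library, sham library 14, had no count of it. *Enpp2* (ENSRNOG00000004089, chromosome 7, 94480396 to 94563001) encodes autotaxin, the secreted enzyme that makes lysophosphatidic acid, which oligodendrocytes are also known to express. It was the one member well above 0 everywhere, from 23.9 FPKM in amygdala blast library Amy_666 to 932 FPKM in hippocampus blast library 8.

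Across the 10 libraries of hippocampus, cerebellum or amygdala, the 9 genes rose and fell together. Within the hippocampus, the correlation of each gene's log2 CPM with the mean of the other 8 was 0.946 to 0.996 over 10 libraries, and within the cerebellum 0.954 to 0.992. In the amygdala it was 0.843 to 0.984 for 8 genes and 0.688 for *Aqp1*. In the anterior cortex, where *Ttr* was nearly absent, it ran from -0.18 for *Sostdc1* to 0.769 for *Ttr*. These correlations describe 10 libraries each, whose genes share depth and scaling. They include the libraries that stood apart in *Ttr* and were not computed without them.

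The slope of each gene on log2 *Ttr* was tested for all genes by edgeR's quasi-likelihood test with treatment in the model, as a test added after the data had been seen. In the hippocampus the slope was positive and called at an adjusted p under 0.05 for 8 of the 8 other members, and for 2.12% of all 15059 genes tested. Because the members were chosen with earlier results of these data known, such shares describe the data and are no independent support. *Sostdc1* had a slope of 0.99 ± 0.02 (SE, edgeR adjusted p = 2.68e-10) and *Enpp2* one of 0.52 ± 0.05 (edgeR adjusted p = 0.000217), where 1 means in proportion to *Ttr*. *Kl*, *Cldn2*, *Slc4a5* and *Aqp1* had slopes of 0.92 to 1.02, and *Folr1* and *Kcne2* slopes of 0.63 and 0.53.

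In the cerebellum 7 of 7 members tested were called with a positive slope, against 0.555% of 14769 genes. *Sostdc1* again rose nearly in proportion, at 0.99 ± 0.05 (SE, edgeR adjusted p = 7.01e-07), and *Kcne2* had the shallowest slope at 0.26 ± 0.03 (edgeR adjusted p = 0.00236). In the amygdala 5 of 8 members were called, namely *Kl*, *Sostdc1*, *Cldn2*, *Slc4a5* and *Enpp2*, against 0.0851% of 15280 genes, while *Folr1* had an edgeR adjusted p of 0.0551, *Kcne2* of 0.295 and *Aqp1* of 0.408. In the anterior cortex 0 of 4 other members tested were called by edgeR. The 1 gene called there of 14918 (0.0067%) was *Ttr* itself, whose slope on its own level is fixed in advance. Of the 4, 1, *Aqp1*, had an edgeR unadjusted p under 0.05, at 0.0142. The shares of all genes include *Ttr* and the other members in each region, which made up 6 of the 13 genes called in the amygdala.

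These calls rest on the libraries that stood apart. Without hippocampus libraries 8, Hip_666 and 11, all 8 slopes stayed positive, from 0.02 for *Kcne2* to 1.22 for *Kl*, and 0 of 8 were called, against 0.00653% of genes. The lowest edgeR adjusted p was then 0.0795, for *Sostdc1*. Without cerebellum libraries 8, 22 and 33, 3 of 6 members tested had a positive slope and 0 were called, against 0.0134% of genes. Without the 4 amygdala libraries low in *Ttr*, 8 of 8 slopes were positive and 0 were called, against 0% of genes. Leaving out any single library kept 8 of 8 calls in the hippocampus and all 7 or 8 members tested in the cerebellum, and gave 3 (without blast library 22) to 6 (without sham library 33) in the amygdala.

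**Figure D2:**
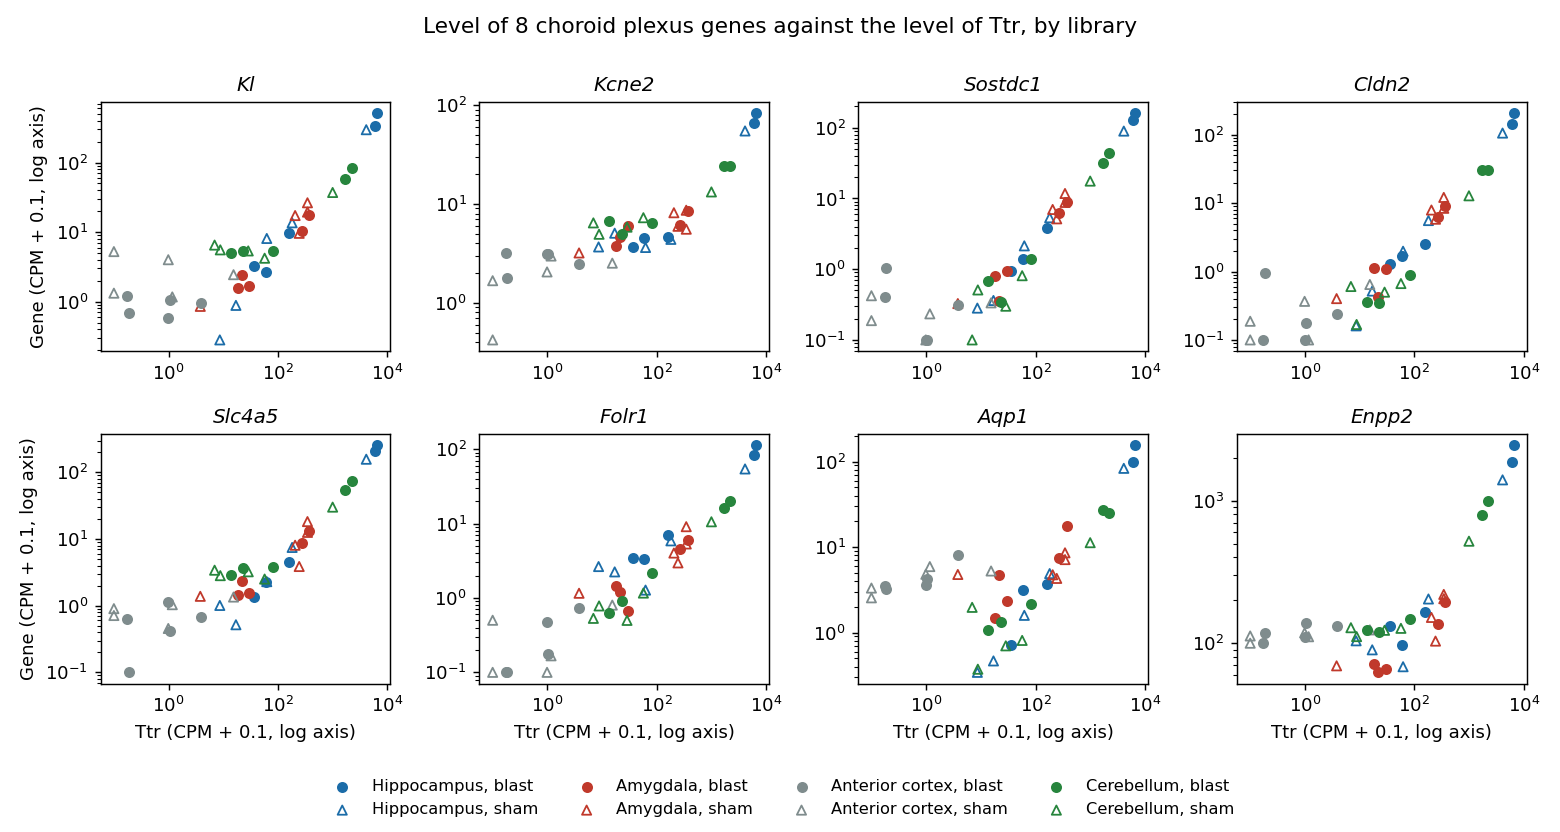
Level of each of the other 8 genes (CPM plus 0.1, log axis) against the level of Ttr (CPM plus 0.1, log axis) in 40 libraries, with filled circles for blast and open triangles for sham and a colour for each region. Sostdc1 and Cldn2 follow Ttr over most of its range, while Enpp2 and Kcne2 stay flat at low Ttr and climb in the libraries with most Ttr.

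On a linear scale, a line through the 10 libraries of a region gives how many counts of a gene came with each 100 counts of *Ttr*. *Enpp2* gained 39.8 ± 0.29 counts per 100 of *Ttr* in the cerebellum, 38.0 ± 5.2 in the amygdala and 32.7 ± 1.3 in the hippocampus (slope ± SE, n = 10 libraries each). Where *Ttr* was 0 the line left 114 ± 2.7, 57.4 ± 12.1 and 93.8 ± 40.9 CPM of *Enpp2* in the same 3 regions. In the anterior cortex, with next to no *Ttr*, *Enpp2* stood at 99.9 to 139 CPM. *Enpp2* thus had a level apart from *Ttr* in each region, and a further amount that came with *Ttr* in the other 3.

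*Kl* gained 3.42 ± 0.10 counts per 100 of *Ttr* in the cerebellum and 6.90 ± 0.46 in the hippocampus, a ratio of 0.496. Leaving out 1 library at a time moved these slopes between 3.17 and 3.55 in the cerebellum and between 6.02 and 7.74 in the hippocampus. The libraries richest in *Ttr* show it directly: *Kl* had 3.39 and 3.77 counts per 100 of *Ttr* in cerebellum blast libraries 8 and 22 and 3.71 in sham library 33, against 7.91 and 5.55 in hippocampus blast libraries 8 and Hip_666 and 7.22 in sham library 11. *Cldn2* gained 1.50 ± 0.08 in the cerebellum and 2.79 ± 0.16 in the hippocampus, a ratio of 0.536.

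For the other genes the ratio of the cerebellum slope to the hippocampus slope was 0.603 for *Folr1*, 0.611 for *Aqp1*, 0.777 for *Kcne2*, 0.834 for *Sostdc1*, 0.844 for *Slc4a5* and 1.22 for *Enpp2*. The slopes in each of these regions rest on 3 libraries rich in *Ttr*, the difference between regions was not tested, and each value is a description of these libraries. The amygdala slopes stood nearer to those of the hippocampus, at 0.783 of it for *Kl* and 0.944 for *Cldn2*, with SEs of 0.89 and 0.31 counts.

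**Figure D3:**
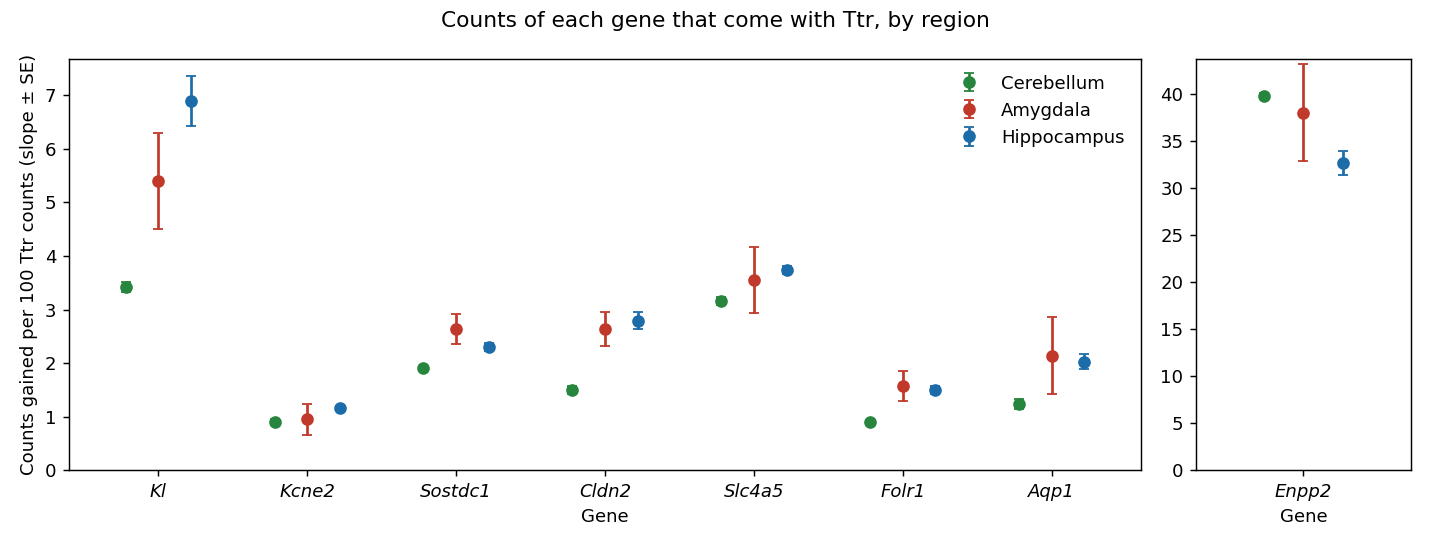
Counts of each gene gained per 100 counts of Ttr (slope of a line through 10 libraries, bars are the SE) in cerebellum, amygdala and hippocampus, with Enpp2 on its own axis. Kl and Cldn2 stand at 3.42 and 1.50 in the cerebellum and at 6.90 and 2.79 in the hippocampus.

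Between blast and sham, no member that passed the count filter had an adjusted p under 0.05 in any region. Of the 9, 9 passed it in hippocampus and amygdala, 8 in the cerebellum and 5 in the anterior cortex. In the hippocampus the log2 fold change of blast over sham was 1.57 ± 1.72 (SE) for *Ttr* and between 1.23 and 1.72 for the other 8, all with an edgeR adjusted p of 0.998. Single libraries moved these values widely: for *Ttr* the fold change was 5.26 without sham library 11 and 0.86 without blast library 8, and for *Kl* it was 5.0 and 0.48. Over all 9 it lay between 2.98 and 5.28 without library 11 and between 0.48 and 0.93 without library 8, and no member was called in either case. Over all 15059 hippocampus genes edgeR called 0 (0%), with 284 at an unadjusted p under 0.05, none of them a member. Chance alone would put about 753 genes under 0.05. DESeq2 called 1 and voom 0.

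With the level of *Ttr* as a covariate, the hippocampus fold changes of the 8 other genes lay between -0.30 for *Kl* and 0.27 for *Folr1* (log2, edgeR adjusted p of 1.00 for each). *Enpp2* then stood at -0.07 ± 0.38, against 1.35 ± 1.08 with no covariate (log2 fold change ± SE). Without libraries 8, Hip_666 and 11, the 9 genes lay between -0.13 and 0.66 on the log2 scale. At equal *Ttr*, no member's remaining difference passed the test. *Ttr* is itself 1 of the 9 genes, so in every region this fit cannot show a difference that *Ttr* shares with the other members. EdgeR called 0 of 15059 genes with the covariate (0%), and 229 had an unadjusted p under 0.05, where chance alone gives about 753.

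In the cerebellum the log2 fold change was 1.89 ± 1.45 for *Ttr*, 2.11 ± 1.34 for *Sostdc1*, 2.0 ± 1.05 for *Aqp1* and 0.83 ± 0.45 for *Kcne2* (SE, edgeR adjusted p of 0.999 each). The 4 other members tested lay between 1.11 and 1.78. Without sham library 33, *Ttr* stood at 4.99, *Sostdc1* at 5.50 and *Aqp1* at 3.69. Without blast library 22, *Ttr* stood at 1.06 and *Sostdc1* at 1.23, and without blast library 8 *Aqp1* stood at 1.36. At equal *Ttr*, the 7 other genes tested lay between -0.02 for *Kl* and 0.43 for *Aqp1*. With the other choroid plexus genes as covariate, *Kl* stood at -0.45 ± 0.17 (edgeR unadjusted p = 0.021, adjusted p of 1.00). In that fit *Slc4a5* stood at -0.33 ± 0.14 (edgeR unadjusted p = 0.0425) and *Enpp2* at -0.25 ± 0.11 (edgeR unadjusted p = 0.0495). Their edgeR adjusted p was 0.9999 each, and *Aqp1* was the highest member, at 0.0015. Without libraries 8, 22 and 33, 7 genes could be tested and lay between -0.07 for *Kl* and 0.80 for *Folr1*. EdgeR called 0 of 14769 cerebellum genes (0%) in either fit, with 683 at an unadjusted p under 0.05, against 537 with the covariate. Chance alone would put about 738 genes under 0.05. DESeq2 called 5 genes, none a member, and voom 0.

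In the amygdala 8 of the 9 genes had a log2 fold change below 0, opposite in sign to the hippocampus. *Kl* stood at -1.17 ± 0.72 (SE, edgeR adjusted p = 0.659), *Ttr* at -0.72 ± 0.88 (edgeR adjusted p = 0.838) and *Aqp1* at 0.15 ± 0.51 (edgeR adjusted p = 0.95). At equal *Ttr*, *Kl* had the lowest value, at -0.56 ± 0.24 (edgeR unadjusted p = 0.0356, adjusted p = 0.375), and *Aqp1* the highest, at 0.12. With the other choroid plexus genes as covariate, *Kl* stood at -0.65 ± 0.18 (edgeR unadjusted p = 0.00356, adjusted p = 0.308). In that fit *Enpp2* stood at -0.30 ± 0.12 (edgeR unadjusted p = 0.0288, adjusted p = 0.403), and *Aqp1* was the highest member, at 0.11. Without the 4 libraries low in *Ttr*, 4 of the 9 genes were above 0, *Ttr* among them at 0.14 ± 0.21, and *Aqp1* stood at 1.00 ± 0.36 (edgeR unadjusted p = 0.0199, adjusted p = 0.99). *Kl* had 1.46 to 17.2 CPM in blast libraries and 0.754 to 26.3 CPM in sham libraries, so its groups overlapped widely. EdgeR called 0 of 15280 amygdala genes (0%) in either fit, with 1325 at an unadjusted p under 0.05, against 1871 with the covariate. Chance alone would put about 764 genes under 0.05. DESeq2 called 9 genes, none a member, and voom 0.

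In the anterior cortex, *Kl* stood at 0.126 to 0.292 FPKM in blast libraries (median 0.222) and at 0.278 to 1.34 FPKM in sham libraries (median 0.609). Only sham library 14 lay below the highest blast library. The log2 fold change was -1.86 ± 0.51 (SE), with an edgeR unadjusted p of 0.00286 and an adjusted p of 0.799, and it was -1.86 ± 0.52 at equal *Ttr* (edgeR adjusted p = 0.555). Without libraries 8, 11, 13 and 15 it was -1.09 ± 0.52 (edgeR adjusted p = 0.999), and edgeR then called 2 of 15517 genes (0.0129%), no member among them. In the authors' deposited table *Kl* has a p of 0.000452 and an adjusted p of 0.995 in this region. *Kl* had 7 to 64 counts per anterior cortex library.

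Of the other members, 4 passed the filter in the anterior cortex. *Ttr* had a log2 fold change of -1.65 ± 1.29 and *Kcne2* one of 0.46 ± 0.44 (SE, edgeR adjusted p = 0.799 and 0.808). *Aqp1* stood at 0.00 ± 0.32 and *Enpp2* at 0.02 ± 0.12. Without libraries 8, 11, 13 and 15, *Ttr* stood at -2.62 ± 1.04 (edgeR unadjusted p = 0.032, adjusted p = 0.999), *Kcne2* at 0.076, *Aqp1* at -0.24 and *Enpp2* at -0.0082. *Ttr* turned to 1.16 without sham library 33 alone. *Enpp2* averaged 45.8 ± 6.1 FPKM in blast libraries and 43.2 ± 3.4 FPKM in sham libraries (SD, n = 5 each). EdgeR called 0 of 14918 genes (0%) in either fit, with 644 at an unadjusted p under 0.05, against 1275 with the covariate, and DESeq2 and voom called 0. Chance alone would put about 746 genes under 0.05.

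**Figure D4:**
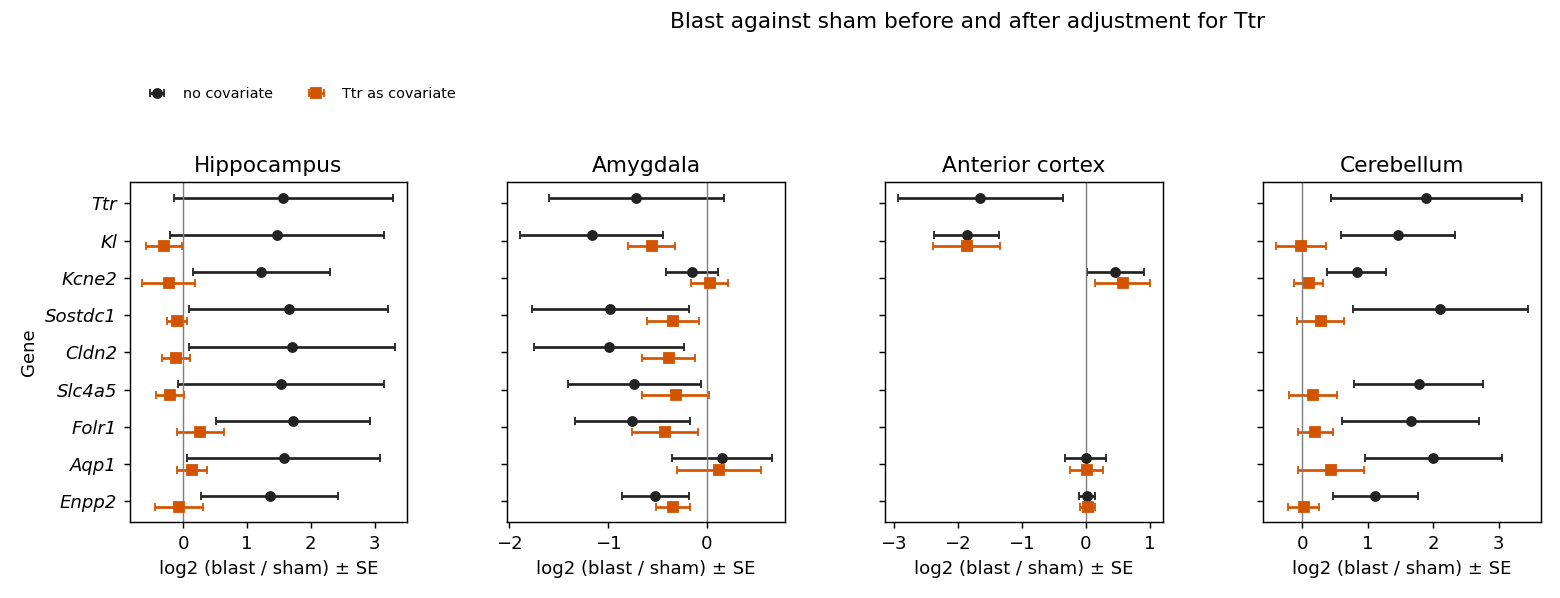
Log2 fold change of blast over sham with its SE for each gene in each region, with no covariate (black circles) and with Ttr as covariate (orange squares); genes that failed the filter have no mark. The black marks sit at 1.23 to 1.72 in the hippocampus and mostly below 0 in the amygdala, and the orange marks sit near 0 in the hippocampus and cerebellum.

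Over the 4 regions in 1 model, the difference of the blast effect between regions had an edgeR adjusted p of 1.00 for each of the 9 genes, with unadjusted values from 0.206 for *Kl* to 0.582 for *Kcne2*, and edgeR called 0 of 16378 genes (0%). The opposite signs in hippocampus and amygdala were not tested against each other alone. The mean blast effect over the regions lay between -0.05 for *Kl* and 0.92 for *Aqp1* (log2), with edgeR adjusted p-values from 0.603 to 0.985. EdgeR called 2 of 16378 genes for that mean (0.0122%), *Hif3a* and *Sla2*, neither of them a choroid plexus gene. Without anterior cortex sham library 14 the count was 42, none of them a member. The model takes the 40 libraries as independent, and with a replicate block on the title number voom called 1 gene for the mean.

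The same question was put to lists of other genes. The lists, like the members, were chosen with earlier results of these data known, so their shares beside the background are descriptions. The 28 other choroid plexus genes in the tables, such as the serotonin receptor *Htr2c* and the IGF-binding protein *Igfbp2*, had a median log2 fold change of 1.26 in the hippocampus, with 25 of 25 tested above 0, and of 1.02 in the cerebellum, with 21 of 21 above 0, and edgeR called 0 of them. At equal *Ttr* the medians were -0.08 (11 of 25 above 0) and 0.17 (16 of 21 above 0). The median of all genes tested lay between -0.0047 and 0.0022 in these 4 fits. The slope on *Ttr* was positive and called for 23 of 25 in the hippocampus, 13 of 21 in the cerebellum and 3 of 26 in the amygdala, beside the background shares given above. *Tmem72*, *Clic6* and *F5* were the 3 called in the amygdala. *Htr2c* had a slope of 0.47 in both hippocampus (edgeR adjusted p = 0.000617) and cerebellum (edgeR adjusted p = 9.98e-06).

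Of the genes for fluid secretion and ion transport, many of which other cells also use, 7 of 19 tested had a called positive slope in the hippocampus, 3 of 19 in the cerebellum and 0 of 19 in the amygdala, against 2.12%, 0.555% and 0.0851% of all genes. Of the epithelial junction genes, 4 of 11 had a called positive slope in the hippocampus, 0 of 7 in the cerebellum and 0 of 11 in the amygdala. Of the carriers of thyroid hormone and retinoids, 3 of 8 had one in the hippocampus, 3 of 8 in the cerebellum and 0 of 9 in the amygdala. *Igf2*, the growth factor placed in this list, had a slope of 0.54 in the hippocampus (edgeR adjusted p = 0.00116). It was not called in the cerebellum, at 0.23, or the amygdala, at 0.05 (edgeR adjusted p = 0.0906 and 0.695). The next genes of this list by mean log2 CPM were not called in the hippocampus. Their slopes there were 0.08 and -0.03 (edgeR adjusted p = 0.0916 and 0.741). The list's median log2 fold change of blast over sham was 0.47 in the hippocampus and 0.76 in the cerebellum, and 0.12 and 0.33 at equal *Ttr*.

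Lists for neighbouring cell types were read from the same fits. Ciliated ependymal cells line the ventricles beside the choroid plexus. In the cerebellum the ependyma list had a mean log2 CPM of 1.44 to 2.25 in blast libraries and 0.94 to 1.59 in sham libraries. Its median log2 fold change there was 0.82, and 0.48 at equal *Ttr*, with 10 of 10 genes tested above 0 in both fits and 0 called by edgeR. *Rarres2*, which encodes chemerin, stood at 0.78 ± 0.17, and at 0.74 ± 0.18 at equal *Ttr* (log2 ± SE, edgeR adjusted p = 0.764 and 1.00). The genes of this list with a higher mean log2 CPM stood much lower, at 0.04 ± 0.04 and 0.15 ± 0.13, and both at 0.03 at equal *Ttr*.

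Fibroblast and meningeal genes, among them the collagen gene *Col1a1*, stood in the cerebellum at a mean log2 CPM of 2.83 to 3.37 in blast libraries and 1.76 to 2.96 in sham libraries. Their median log2 fold change was 0.70, and 0.55 at equal *Ttr*, with 14 of 14 genes above 0 in both fits and 0 called by edgeR. Without libraries 8, 22 and 33 it was 0.61. *Col1a1* stood at 0.81 ± 0.39, and at 0.81 ± 0.44 at equal *Ttr* (log2 ± SE). The genes of this list with a higher mean log2 CPM stood lower, at 0.21 ± 0.13 and 0.23 ± 0.18. At equal *Ttr* they stood at 0.09 and 0.13. By the list medians, more of the cerebellum difference was left at equal *Ttr* for these 2 lists than for the choroid plexus lists. Their part in the members' values was not tested.

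In the hippocampus the ependyma list had a median of 0.34, and 0.14 at equal *Ttr*, and the fibroblast list of 0.24 and 0.14. Myelin genes of oligodendrocytes stood at 0.18, and at 0.29 with the covariate, with 12 of 12 above 0 in both. EdgeR called 0 of each list. The neuronal list stood between -0.03 and 0.00 in hippocampus and cerebellum in both fits. In the other 2 regions the signs were mixed: the median was -0.13 for the other choroid plexus genes (7 of 26 above 0) and -0.10 for ependyma (3 of 10) in the amygdala, where fibroblast genes stood at 0.16 (11 of 14). In the anterior cortex it was -0.17 for fibroblast genes (3 of 14), -0.20 for endothelium (1 of 8) and 0.10 for ependyma (6 of 7). Of the listed genes present in a region's table, none was at 0 in every library of that region. In hippocampus, amygdala and cerebellum the same holds for every gene of the table, so this says nothing of the lists. Of the other choroid plexus genes, 28 were present for the hippocampus, 27 each for amygdala and anterior cortex, and 26 for the cerebellum.

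**Figure D5:**
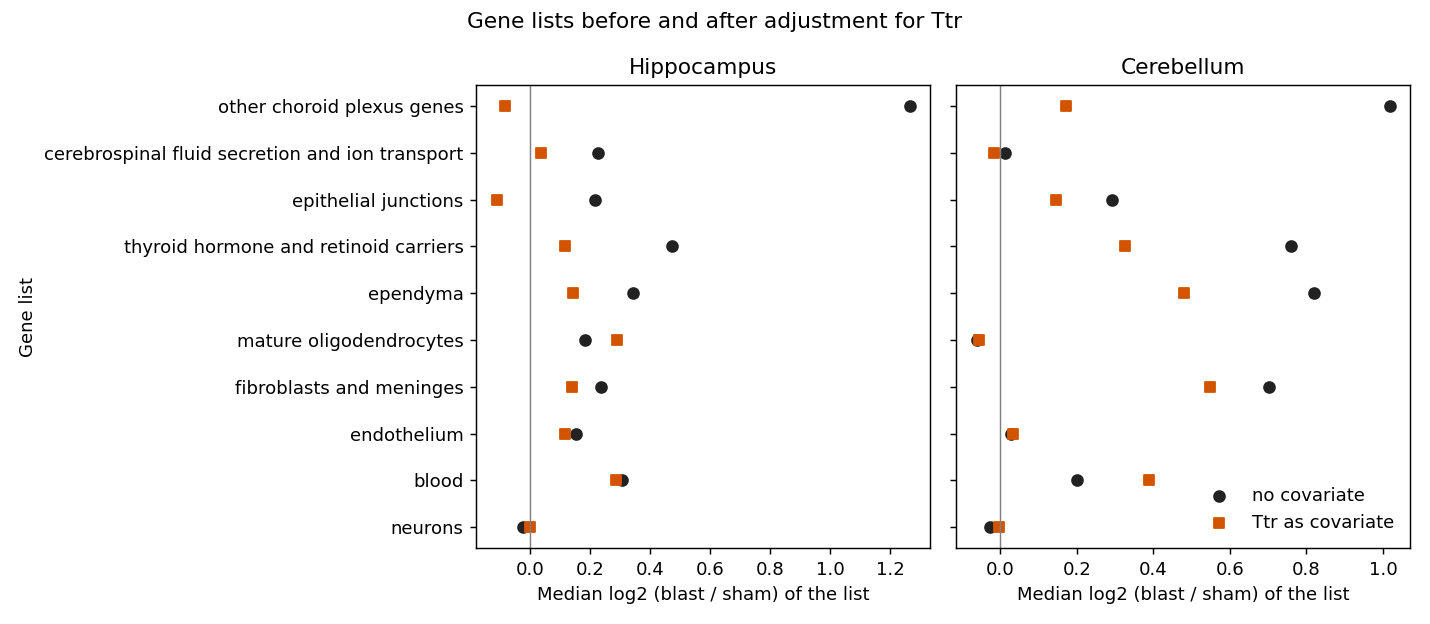
Median log2 fold change of blast over sham for 10 gene lists (rows) in hippocampus and cerebellum, with no covariate (black circles) and with Ttr as covariate (orange squares). The other choroid plexus genes move from 1.26 and 1.02 to near 0, while ependyma and fibroblast genes stay at 0.48 and 0.55 in the cerebellum.

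Outside the 9 members, the genes whose libraries ran most like theirs were ranked by Pearson's r between the gene's log2 CPM and the mean of the members, each centred within its region, over 40 libraries and 13962 genes. *Mfrp*, a frizzled-related membrane protein of retinal pigment epithelium, came first with an r of 0.974. *Kcnj13*, an inward rectifier potassium channel of epithelia, followed with 0.938, the collagen gene *Col8a1* with 0.931, the coagulation factor *F5* with 0.929 and the retinoid transporter *Abca4* with 0.906. *Itpripl1* (0.906), the homeobox gene *Msx1* (0.897), the cadherin *Cdh3* (0.895) and the secreted protease inhibitor *Wfikkn2* (0.888) were also among the first 10. The list of other choroid plexus genes, 28 in the tables, holds 5 of these 10, and 51 genes had an r over 0.8. That list was chosen with earlier results of these data known, so the overlap is a description. The median r over all genes was -0.03.

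Between regions, the genes with a called positive slope on *Ttr* were largely those of the hippocampus. These counts rest on few libraries: with the members included, 319 genes were called in the hippocampus, but 133 without sham library 11, 183 without blast library 8 and 486 without sham library 14, and 82 in the cerebellum, but 40 without blast library 22, 45 without sham library 33 and 53 without blast library 8. Leaving the members out, 285 genes were called in the hippocampus and 70 in the cerebellum among the 14203 tested in both, and 58 were shared, 20.4% of the hippocampus genes and 82.9% of the cerebellum genes. Of the 7 called in the amygdala among those also tested in the hippocampus, 6 were shared. *Tmem72*, *Clic6*, *Mfrp* and *F5* were called in all 3 regions.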

How the data were processed

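Total RNA was extracted with Qiazol, and libraries were built with a NEBNext Ultra RNA kit, per the labels' protocols. The submitters' processing notes name CASAVA; the sources used here do not name the aligner, counting tool, annotation or build. Per the file headers, the authors deposited read counts and FPKM per gene and library, and their own log2 fold changes with p-values and adjusted p-values; the deposited log2 values are shrunken towards 0. A further 41 deposited columns of per-library values were not used; among them are the FPKM of the unnumbered amygdala library, whose values were computed from its counts by the same formula. For 5 of the 9 members the FPKM rest on another length than the table's length column.

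From the counts, CPM (each library's counts scaled to a common total) were computed, and blast was compared with sham per region by edgeR 4.0.16 (filterByExpr, TMM, two-sided quasi-likelihood F tests, Benjamini-Hochberg adjustment over all genes tested, called under 0.05), in R 4.3.3. A second fit added the centred log2 CPM of Ttr; the test of its slope was an addition made with the data in view, as were the lines of counts on Ttr counts. A joint model of 8 group means tested the mean effect and its difference between regions. DESeq2 1.42.0, voom of limma 3.58.1, other filters and scalings, and fits without single libraries or without the libraries highest or lowest in Ttr were alternatives. The fits were tested on simulated data. The members and lists were chosen with earlier results of these data known. Named genes are all members, up to 3 members of each list by mean log2 CPM, the 10 genes most like the members, and genes called where 5 or fewer were; genes called only under an alternative are given as counts, and Otx2 and the region markers were named outside this rule. Of the genes this rule names, 2 are not reported here. Totals of at least 11268097 counts limit counting error, not the spread between libraries.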

Additional observations from a re-analysis of the deposited data

Results flagged for a closer look

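Within groups of 5 libraries, 10 of 72 gene and group combinations held a library far from the other 4 in log2 CPM, by a gap of more than 0.71 of the group's range. Chance flags about 1 in 20 groups, which would be 3.6 of 72, and the genes of a group are not independent. In sham cerebellum, library 33 stood above the other 4 in *Kl* at 5.21 (others 2.09 to 2.73), in *Slc4a5* at 4.91 (others 1.35 to 1.81), in *Folr1* at 3.40 (others -0.88 to 0.27) and in *Enpp2* at 9.01 (others 6.81 to 7.03). In sham amygdala, library 14 stood below the rest in *Ttr* at 1.98 (others 7.66 to 8.46), in *Sostdc1* at -1.43 (others 2.43 to 3.59) and in *Cldn2* at -1.15 (others 2.61 to 3.63). In sham hippocampus, library 11 stood at 5.75 in *Kcne2* (others 1.88 to 2.36).

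The other 2 lie in the anterior cortex, where *Ttr* was nearly absent. Blast library 4 stood at 2.98 in *Aqp1* (others 1.77 to 2.07), and sham library 13 stood at -1.12 in *Kcne2* (others 0.82 to 1.52). Blast library 4 also held the most *Ttr* of the blast cortex libraries, at 53 counts, and sham library 13 is among the 4 cortex libraries with counts in the fewest genes.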

How the results depend on the processing

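No member was called for blast against sham under any of the alternatives run, and the lowest adjusted p among 1653 such values was 0.161; the sign turned in 88 of them. Where edgeR called 0 genes, DESeq2 called 1 for hippocampus, 9 for amygdala and 5 for cerebellum, and edgeR with no filter on low counts called 2 for amygdala. Without the 4 anterior cortex libraries with counts in the fewest genes the count was 2, and 3 with *Ttr* as covariate, where *Enpp2* turned to -0.0082 and, with the covariate, *Kcne2* to -0.054 (log2).

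Without the 3 libraries highest in *Ttr*, hippocampus *Kl*, *Cldn2* and *Slc4a5* turned to -0.11, -0.13 and -0.0054, and with the covariate *Kcne2* and *Enpp2* to 0.016 and 0.042; cerebellum *Kl* and *Kcne2* turned to -0.070 and -0.027, and with the covariate to 0.018 and -0.065. There the slopes on *Ttr* of *Kl*, *Slc4a5* and *Aqp1* turned to -0.10, -0.0065 and -0.011. Without the 4 lowest, amygdala *Ttr*, *Kcne2* and *Slc4a5* turned to 0.14, 0.032 and 0.018. With the mean of other choroid plexus genes in place of *Ttr*, *Enpp2* turned to 0.033 in the hippocampus, and cerebellum *Kcne2*, *Sostdc1*, *Slc4a5*, *Folr1* and *Enpp2* to -0.086, -0.39, -0.33, -0.22 and -0.25. Voom turned amygdala *Aqp1* to -0.34 and cortex *Ttr* to 0.20. Cortex *Aqp1* turned to 0.0088 with no filter and 0.0072 with at least 1 CPM in 5 libraries. The cause of each turn was not tested.

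For the mean effect over regions, a replicate block on the title number (voom with a correlation within numbers) gave 1 called gene in place of 2 and *Kl* at 0.15. The labels do not say what a title number stands for. Over 57 same-numbered pairs the correlation of deviations ran from -0.15 to 0.44, was over 0.1 in 19 and had a median of 0.071, against -0.021 for other pairs, and the library most like a given one in another region bore the same number in 60 of 114 cases. Each of these matches was sought among 5 libraries of the same treatment, of which 1 bears that number. The block left the difference between regions at 0 calls. Without the 3 hippocampus libraries highest in *Ttr*, *Ttr* itself turned to -0.040, and without the 6 libraries of hippocampus and cerebellum highest in *Ttr* the count was 0 and *Ttr*, *Cldn2*, *Slc4a5* and *Enpp2* turned to -0.35, -0.26, -0.29 and -0.063.

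Leaving out 1 library at a time gave 0 to 1 called genes in the hippocampus in both fits, 0 to 2 in the amygdala in both, 0 to 1 in the cerebellum (0 to 3 with the covariate) and 2 to 42 for the mean effect, with 42 without cortex sham library 14, 7 without cortex blast library 8, 6 without cortex sham library 33, 5 without Cer666, and 4 without blast library 4 of either hippocampus or cerebellum. Among members whose sign turned, the mean effect of *Kl* ran from -0.29 to 0.84, amygdala *Aqp1* from -0.62 to 0.42, and cortex *Ttr* from -2.78 to 1.16, *Enpp2* from -0.033 to 0.079 and *Aqp1* from -0.31 to 0.10. With the covariate, hippocampus *Aqp1* ran from -0.13 to 0.26, *Enpp2* from -0.26 to 0.15 and *Cldn2* from -0.31 to 0.071; amygdala *Kcne2* from -0.053 to 0.11 and *Aqp1* from -0.46 to 0.94; cortex *Aqp1* from -0.17 to 0.11 and *Enpp2* from -0.022 to 0.077; and cerebellum *Kcne2* from -0.090 to 0.24, *Enpp2* from -0.12 to 0.17, *Kl* from -0.25 to 0.23 and *Slc4a5* from -0.067 to 0.41. The low counts of the members limit the anterior cortex, where 4 of them failed the count filter.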
